A study of Mus musculus with 10 samples.

Results

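The 7 little-studied genes of nodose neurons, Uts2b, Efcab6, Rprml, Myl1, Itm2a, Dcdc2a and Ccdc80, were followed through 10 pools of mouse vagal sensory neurons. They were picked from the 24421 gene rows because each was over 70 CPM (the counts of a gene scaled to a common total per pool) in both pools of Trpv1-tdTomato-positive nodose neurons and under 1 CPM in both pools of Trpv1-tdTomato-positive jugular neurons. In all, 21 genes met these limits and the 7 are a chosen subset of them. The limits used the 4 Trpv1-positive pools, so the nodose and jugular levels in those pools describe the choice and test nothing. The limits did not use the Trpv1-negative nodose pools or the 4 capsaicin-selected pools, although the 7 were picked from the 21 with earlier results of these data known.

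The Trpv1-tdTomato selection had pools of 30 red nodose neurons, 30 red jugular neurons and 15 nodose neurons without red fluorescence, 2 pools each, from Trpv1-tdTomato mice in which Trpv1-Cre switches on tdTomato from the Rosa26 locus. The red label therefore marks neurons that have ever expressed the Cre, and all pools of this selection came from 2 mice. The capsaicin selection used C57BL/6 mice and took neurons by their calcium response. Its nodose pools (14 and 15 cells) responded to capsaicin (1 μM) and also to 10 μM of α,β-methylene ATP, which activates P2X receptors, and its jugular pools (15 and 16 cells) responded to capsaicin only. Jugular neurons came from the most rostral and nodose neurons from the most caudal part of the fused ganglion. Mouse strain, sequencing core, depth and mode of selection changed together, so they cannot be told apart. The labels do not tie the pools of a group to separate animals, and p-values therefore measure only the spread between pools, which may be technical.

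Total counts were 148452506 to 167704327 per pool in the Trpv1 selection and 17666710 to 30810863 in the capsaicin selection, so that 3 counts, the limit that a count of 0 allows, stood for 0.0179 to 0.0202 CPM and 0.0974 to 0.17 CPM, respectively. Trpv1 was at 254 and 156 CPM in the Trpv1-positive nodose pools, at 25.2 and 38.1 CPM in the Trpv1-positive jugular pools and at 0.0569 and 0.0539 CPM in the Trpv1-negative pools. Piezo2, a mechanosensitive channel, was at 17.66 and 13.98 CPM in the Trpv1-negative pools and at 62.2 and 118 CPM in the Trpv1-positive jugular pools. P2rx2, a P2X receptor gene known from nodose neurons, was at 101 to 448 CPM in the 6 nodose pools and at 0.0775 to 0.271 CPM in the 4 jugular pools. Prdm12, a factor of neural crest nociceptors, was at 25.6 to 218 CPM in jugular pools and at most 0.239 CPM in nodose pools. The ribosomal RNA gene Rn45s took 8.54% and 10.3% of the counts of the Trpv1-positive nodose pools and at most 3.38% elsewhere, which lowers every other CPM in those 2 pools slightly.

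The nodose ganglion holds placode-derived visceral sensory neurons, and the jugular ganglion holds neural crest-derived neurons that resemble those of dorsal root ganglia. The 7 genes come from unrelated families. Uts2b encodes a secreted peptide of the urotensin family that acts on the receptor Uts2r. Ccdc80 encodes a secreted protein of the extracellular matrix, and Itm2a a membrane protein with a BRICHOS domain. Myl1 encodes an essential light chain of fast skeletal muscle myosin. Dcdc2a encodes a protein with doublecortin domains, which bind microtubules, Efcab6 a protein with EF-hand calcium-binding motifs, and Rprml a relative of the cell cycle arrest protein Reprimo.

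On GRCm38 (GENCODE vM21) Uts2b lies on chromosome 16 from 27353322 to 27370239 (minus strand), Ccdc80 on chromosome 16 from 45093402 to 45128077 (plus strand) and Itm2a on chromosome X from 107397099 to 107403376 (minus strand). Myl1 lies on chromosome 1 from 66924295 to 66945404 (minus strand), Dcdc2a on chromosome 13 from 25056004 to 25210706 (plus strand), Efcab6 on chromosome 15 from 83866712 to 84065379 (minus strand) and Rprml on chromosome 11 from 103649570 to 103650579 (plus strand). Efcab6 and Dcdc2a each overlap 1 processed pseudogene on the other strand, and the other 5 overlap no annotated gene.

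Promoters are shown for 3 of the genes that parted in the Trpv1-negative neurons, where Uts2b was nearly absent, Myl1 was low and Dcdc2a was kept. Each is the 250 bases before the RefSeq start (GRCm38.p6), written 5′ to 3′ on the strand of the gene, and capitals mark the E-box letters CANNTG, the core that basic helix-loop-helix factors read. The windows are chr16:27370240-27370489 (minus strand), chr1:66945057-66945306 (minus strand) and chr13:25055754-25056003 (plus strand). The Myl1 window lies inside the GENCODE gene, which begins at 66945404 on the minus strand, so it precedes the RefSeq start only.
Uts2b: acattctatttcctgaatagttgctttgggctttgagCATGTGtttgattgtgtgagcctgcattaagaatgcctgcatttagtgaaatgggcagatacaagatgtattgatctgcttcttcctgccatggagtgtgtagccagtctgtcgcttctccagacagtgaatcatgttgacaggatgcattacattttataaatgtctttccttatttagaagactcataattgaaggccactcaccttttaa
Myl1: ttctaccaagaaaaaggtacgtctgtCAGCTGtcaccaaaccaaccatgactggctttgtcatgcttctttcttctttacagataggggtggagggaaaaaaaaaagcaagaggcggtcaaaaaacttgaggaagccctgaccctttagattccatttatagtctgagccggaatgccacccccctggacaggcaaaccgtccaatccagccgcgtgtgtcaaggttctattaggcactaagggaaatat
Dcdc2a: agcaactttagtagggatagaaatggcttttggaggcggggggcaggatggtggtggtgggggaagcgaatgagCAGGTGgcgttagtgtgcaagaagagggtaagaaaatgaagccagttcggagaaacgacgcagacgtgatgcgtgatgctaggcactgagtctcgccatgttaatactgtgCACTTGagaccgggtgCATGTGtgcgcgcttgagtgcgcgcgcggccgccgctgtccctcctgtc

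RefSeq promoters were at hand for 5 of the 7 genes, the others being Efcab6 and Ccdc80. The E-box letters stood in 4 of these 5 (Uts2b, Myl1, Itm2a and Dcdc2a, the last with 3 matches), against 66.2% of all 32851 promoters. TATAAA, searched on both strands, stood in 2 of 5 (Uts2b and Myl1), against 12.4% of all. TAATTA, a core of homeodomain sites (4.84% of all), stood in none of the 5. These are descriptions of letters in 250 bases. The Uts2b window was 39.6% G and C with 1 CpG, while that of Dcdc2a was 57.2% with 18 CpGs, and the median promoter had 52.4% and 6 CpGs.

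The values behind the choice were far apart. For Uts2b the Trpv1-positive nodose pools had 318 and 502 CPM, against 9 and 7 counts in jugular neurons. Dcdc2a was at 697 and 707 CPM against 54 and 46 counts, the highest jugular level of the 7 at 0.328 and 0.274 CPM. Myl1 was at 149 and 152 CPM against 3 and 2 counts.

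Itm2a stood at 155 and 171 CPM in these nodose neurons and had 6 and 2 jugular counts, Ccdc80 at 125 and 120 CPM against 4 and 5 counts, and Efcab6 at 207 and 265 CPM against 7 and 5 counts. Rprml, at 141 and 70.3 CPM against 7 and 2 counts, was the member nearest to the limit of 70 CPM. The gene just outside that limit was Mpped2, whose lower nodose pool was at 64.0 CPM. At the other limit Usp39, which is not of the 7, was just inside at 0.96 CPM in its higher jugular pool and Map2 was just outside at 1.04 CPM. The fitted log2 difference ran from 11.33 (Dcdc2a) to 13.36 (Myl1). The call rule of the study (adjusted p of at most 0.1, fold of at least 2, at least 10 CPM in both replicates of a group) was met by 6 of 7, with Rprml the exception. It was met toward nodose by 0.182% of the 10990 genes tested, and since these pools chose the genes nothing is read from the count.

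The replicates of Dcdc2a, Myl1, Ccdc80 and Itm2a differed by a factor of 1.01, 1.02, 1.04 and 1.10 in the Trpv1-positive nodose pools. Those of Efcab6, Uts2b and Rprml differed by 1.28, 1.58 and 2.01. In pools, fewer positive cells and less RNA per cell cannot be told apart.

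**Figure D1:**
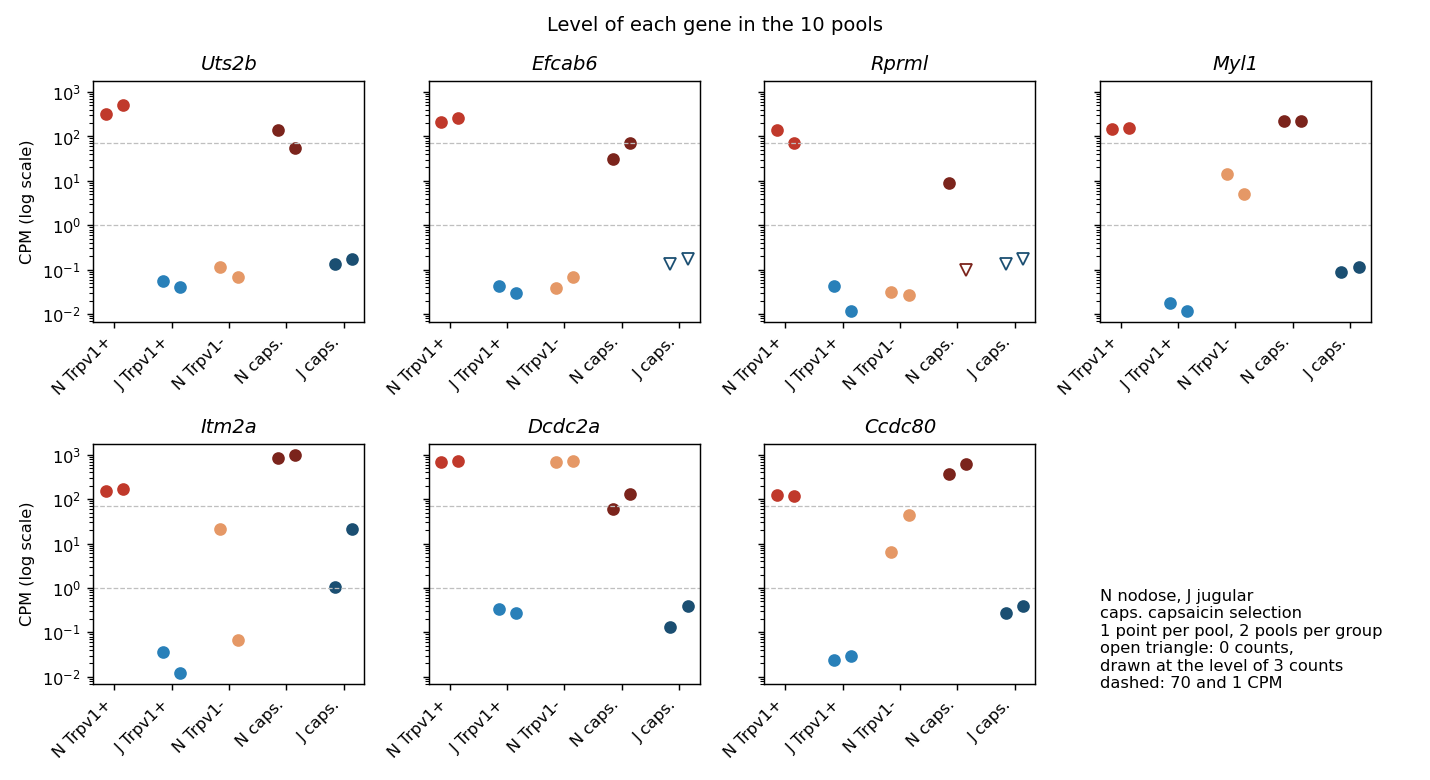
CPM on a log axis of each of the 7 genes in the 10 pools, 1 point per pool and 2 pools per group (N, nodose; J, jugular; Trpv1+ and Trpv1-, with and without tdTomato; caps., capsaicin selection); open triangles are pools with 0 counts drawn at the level of 3 counts, and dashed lines mark 70 and 1 CPM. All 7 genes are low in jugular pools apart from Itm2a in the second capsaicin-selected pool (21.5 CPM), and the Trpv1-negative nodose pools range from under 1 CPM (Uts2b, Efcab6, Rprml) to the level of the positive pools (Dcdc2a).

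The question put to the Trpv1-negative nodose pools was whether each gene was also present in nodose neurons without the label. In jugular neurons with the label all 7 were under 1 CPM by the limits. The 7 genes fell into 3 patterns. Uts2b, Efcab6 and Rprml were nearly absent, Myl1, Itm2a and Ccdc80 were present at a lower level, and Dcdc2a was at the same level as in positive neurons. The positive side of this comparison was fixed by the limit of 70 CPM, so it is given as levels with no test. Dcdc2a was high in nodose neurons with and without the label.

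Uts2b had 18 and 10 counts in the Trpv1-negative pools (0.114 and 0.0674 CPM), which is 0.0221% of its mean in the positive pools. Efcab6 had 6 and 10 counts (0.0379 and 0.0674 CPM), and Rprml had 5 and 4 counts (0.0316 and 0.0269 CPM). All 6 of these values were under 1 CPM, as were those of the jugular pools. Their fitted log2 differences, positive over negative, were 12.48 ± 0.72 (SE, n = 2 pools each) for Uts2b, 12.47 ± 0.86 for Efcab6 and 12.14 ± 1.46 for Rprml.

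Myl1 was at 14.2 and 5.02 CPM in the negative pools, 6.40% of the positive mean. Ccdc80 was at 6.51 and 44.6 CPM (20.9%). Itm2a was at 21.6 CPM in negative pool 1 and at 10 counts (0.0674 CPM) in negative pool 2, so that its mean of 6.65% rests on 1 pool of 15 cells. All 6 negative values of these 3 genes lay below all their positive values. The fitted log2 differences were 4.31 ± 0.90 for Myl1, 2.64 ± 1.12 for Ccdc80 and 4.24 ± 2.25 for Itm2a.

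Dcdc2a was at 691 and 722 CPM in the negative pools, which enclosed the 697 and 707 CPM of the positive pools. The ratio of the positive to the negative mean was 0.994 on the CPM scale. On the TMM scale of the fit, which also allows for Rn45s and other high genes, the log2 difference was 0.35 ± 0.21, so the sign of this small difference depends on the scaling.

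The call rule was met by 2 of the 7, Uts2b and Efcab6, against 0.0527% of the 11386 genes tested that met it toward positive neurons. Both calls were lost with the replicate block and with any 1 pool left out, and that of Efcab6 also with all 10 pools in 1 fit. The pools of 6 of 7 did not overlap, against 13.4% of genes. Because the positive pools were chosen to be high, these counts are given as a description. Among all 21 genes that met the limits, 5 were under 1 CPM in both negative pools, namely Uts2b, Efcab6, Rprml, Kcnk3 and Vip, and 7 kept at least 50% of their positive level, of which Dcdc2a was the only one among the 7 studied here.

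The capsaicin selection gave a comparison of nodose with jugular neurons in pools that the limits did not use. Toward nodose, 6 of the 7 genes did not overlap between the groups (background 11.6% of 8181 genes), and Rprml was the exception. The 8181 genes are those that passed edgeR's filter on low counts, which Rprml did not. Apart from Itm2a, the 6 had at most 7 counts in a jugular pool and passed that filter only through their nodose pools. Their lack of overlap was thus nearly fixed by the filter, and nothing is read from its share. None of the 7 met the call rule in edgeR's quasi-likelihood test of the 4 pools, and neither did any other gene in either direction (0% of 8181). All 6 genes that could be tested had an unadjusted p under 0.05 toward nodose, as did 2.57% of genes. DESeq2 called those 6, against 0.814% of 12162 genes. Without the filter on low counts edgeR called 3 (Ccdc80, Itm2a and Myl1; background 0.378%), and with the replicate number as a block it called 2 (Ccdc80 and Itm2a; background 0.134%). With 2 pools on each side, the smallest p that exact permutation allows is 0.333.

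Itm2a was the most abundant of the 7 in these pools, at 851 and 1005 CPM in nodose neurons. The jugular pools had 1.04 and 21.5 CPM (23 and 380 counts), the highest jugular level of any of the genes. Its nodose mean was 82.3 times the jugular mean, and the log2 fold change was 6.82 ± 1.63 (SE, adjusted p = 0.352 in edgeR). Without jugular pool 2 the log2 fold change was 10.14, and the adjusted p fell to 0.00521 in a fit with a single jugular pool.

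Ccdc80 was at 363 and 616 CPM in nodose and at 6 and 7 counts in jugular pools. The log2 fold change was 10.96 ± 1.12 (adjusted p = 0.155 in edgeR), and the ratio of summed counts per total was 1561 with a 95% interval from counting error of 912.7 to 2932. Myl1 had 226 and 219 CPM in nodose pools and 2 counts in each jugular pool. Its ratio was 2213 (864.1 to 8123, counting error only), and the log2 fold change was 11.39 ± 1.37 (adjusted p = 0.162 in edgeR). These 2 genes had the smallest standard errors of the 6.

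Uts2b had 142 and 56.4 CPM in the nodose pools, with 3 counts in each jugular pool. The ratio was 615 (282 to 1676, counting error only) and the log2 fold change 9.53 ± 2.14 (adjusted p = 0.352 in edgeR). Dcdc2a was at 59.5 and 133 CPM against 3 and 7 counts, a log2 fold change of 8.98 ± 2.13 (adjusted p = 0.352 in edgeR). Efcab6 was at 30.4 and 71.7 CPM in nodose pools and had no count in jugular pools, so its nodose mean was at least 335-fold higher than a floor of 3 counts per jugular library (adjusted p = 0.352 in edgeR). Within the nodose group the higher pool exceeded the lower by 2.23 to 2.52 times for these 3 genes.

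Rprml gave 196 counts (8.75 CPM) in nodose pool 1 and no count in nodose pool 2 or in the jugular pools. At the depth of nodose pool 2, a count of 0 allows up to 0.0974 CPM, which is a limit from counting error alone. Rprml did not pass edgeR's filter on low counts and was not tested. It is the gene whose level in the Trpv1-positive nodose pools was least repeated in capsaicin-selected nodose neurons.

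With all 10 pools in 1 fit, edgeR called 5 of the 7 toward nodose in the capsaicin selection (Uts2b, Efcab6, Myl1, Dcdc2a and Ccdc80), against 0.34% of 12957 genes. That fit takes its spread also from the pools that chose the genes, so it is not independent of the choice.

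**Figure D2:**
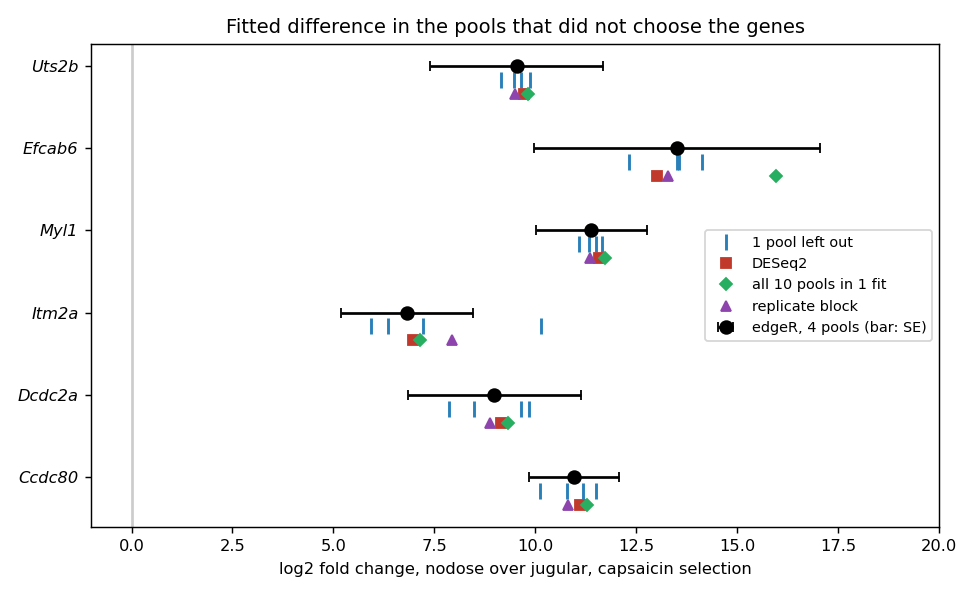
Log2 fold change of nodose over jugular neurons in the capsaicin selection for the 6 genes that were tested; black points with bars are the edgeR fit to the 4 pools and its SE, blue marks the fits with 1 pool left out, and squares, diamonds and triangles DESeq2, the fit to all 10 pools and the fit with the replicate block. Every value lies above 0, which the lack of overlap between these pools nearly fixes in advance. Itm2a moves most, from 5.92 to 10.14, depending on the jugular pool left out.

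The levels in nodose neurons differed between the selections, in a comparison where strain, core, depth and selection cannot be told apart. Itm2a and Ccdc80 were higher in the capsaicin-selected nodose pools, at 5.70 and 3.999 times their mean in the Trpv1-positive pools, and Myl1 was at 1.48 times. The other genes were lower. The Trpv1-positive mean was 4.12 times the capsaicin-selected mean for Uts2b, 4.62 times for Efcab6, 7.30 times for Dcdc2a and 24.2 times for Rprml.

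**Figure D3:**
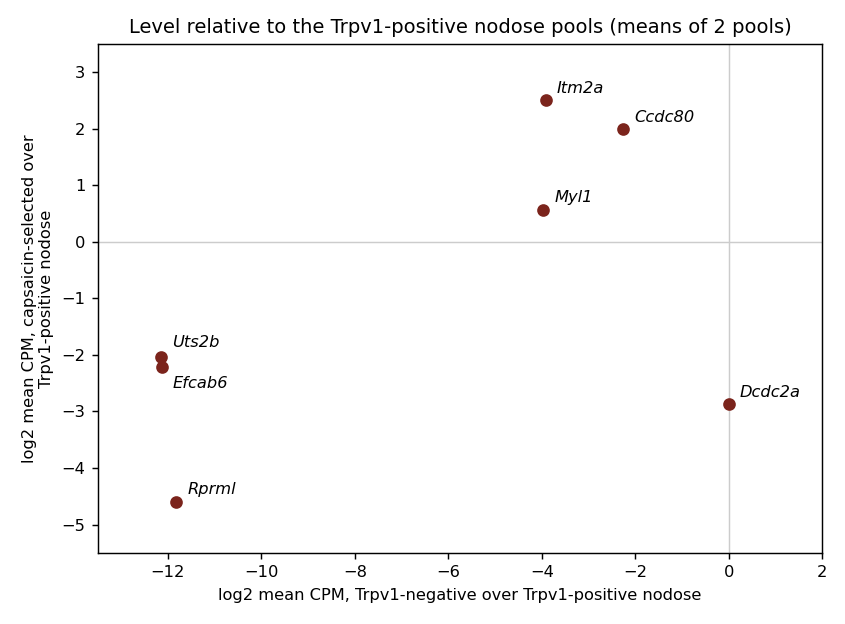
Mean CPM of each gene relative to its mean in the Trpv1-positive nodose pools, on log2 axes, in Trpv1-negative nodose pools (horizontal) and in capsaicin-selected nodose pools (vertical), means of 2 pools. Uts2b, Efcab6 and Rprml lie at the left, near -12, Myl1, Itm2a and Ccdc80 at -3.97 to -2.26 and above 0 on the vertical axis, and Dcdc2a at 0.01 on the horizontal axis.

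Levels of different genes can be compared only per length. On a scale of CPM per kilobase of annotated exon, Uts2b was highest in Trpv1-positive nodose neurons with a mean level of 491. Rprml, Itm2a, Dcdc2a and Myl1 followed at 105, 93.3, 84.8 and 72.4. The range of the 2 Rprml pools took in the levels of the 3 genes after it, so their order is not resolved. Efcab6 and Ccdc80 were lowest at 36.8 and 28.5. In capsaicin-selected nodose neurons the order changed, with Itm2a first at 532. Uts2b, Ccdc80 and Myl1 were at 119, 114 and 107, in pools that overlapped (67.6 to 170, 84.4 to 144 and 106 to 109), so that their order is not resolved, and Dcdc2a, Efcab6 and Rprml were at 11.6, 7.97 and 4.33, also with overlapping pools.

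**Figure D4:**
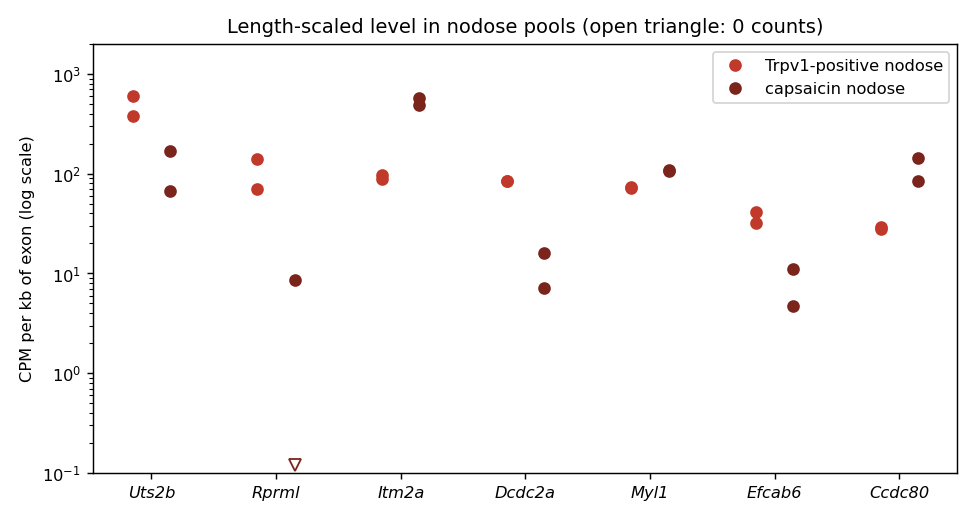
CPM per kilobase of exon on a log axis in the 2 Trpv1-positive and the 2 capsaicin-selected nodose pools, 1 point per pool, genes ordered by their mean in the Trpv1-positive pools; the open triangle is the Rprml pool without a count, drawn near the foot of the axis. Uts2b leads in the Trpv1-positive pools (mean 491) and Itm2a in the capsaicin-selected pools (mean 532).

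The relatives of the 7 genes, fixed by family, give the setting of each. Of 35 relatives in 7 lists, 11 had no count in any pool, 10 reached 10 CPM in both pools of a group, and none met the limits that the 7 genes met. In the capsaicin selection 12 relatives could be tested, and none was called by edgeR, which called 0 of all 8181 genes. DESeq2 called only Dclk1, lower in nodose neurons, as it did 697 of all 12162 genes, so nothing is read from these counts.

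The urotensin list had 3 genes, of which Uts2b alone was counted. Uts2, the other ligand of the family, and Uts2r, the receptor, were at 0 counts in all 10 pools. Of the matrix relatives of Ccdc80, Srpx and Srpx2, neither had a count. Ccdc80 and Uts2b were thus the only tested genes of their lists.

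The 12 myosin light chains include those of muscle and of other cells, and 4 of them could be tested. Myl6 and Myl12b, the light chains of non-muscle myosin, were at 238 to 1556 CPM and 208 to 628 CPM in every pool, with log2 fold changes of 0.02 ± 0.57 and 0.01 ± 0.64 in the capsaicin selection (adjusted p = 0.9999 in edgeR for both). Myl4, a light chain of atrial and embryonic muscle, was at 5.64 and 31.8 CPM in the Trpv1-positive nodose pools, at 13.2 CPM in negative pool 1 and at 11.4 CPM in capsaicin-selected jugular pool 2. Mylpf, the regulatory light chain of fast muscle, was counted in 1 pool, at 9.84 CPM in Trpv1-positive jugular pool 2, and Myl2, Myl3, Myl7 and Myl10 had no count in any pool.

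The 10 marker genes of skeletal muscle summed to 38.2 and 39.2 CPM in the Trpv1-positive nodose pools, 5.73 to 9.86 CPM in the jugular pools, 8.72 to 20.9 CPM in the negative pools, 0.0446 and 35.5 CPM in the capsaicin-selected nodose pools and 0 in the capsaicin-selected jugular pools. Their sum was thus highest in the Trpv1-positive nodose pools, where Acta1 (9.59 and 36.3 CPM) and Tnnc1 (24.4 and 0 CPM) made up most of it, and its part in the level of Myl1 there was not tested. In capsaicin-selected nodose pools 1 and 2, with sums of 0.0446 and 35.5 CPM, Myl1 was at 226 and 219 CPM, and a link was not tested there either. Ckm was at 4.20 and 2.82 CPM in the Trpv1-positive nodose pools, at 1.57 CPM in negative pool 2 and at 0 elsewhere, and Actn3 was at 1.56 CPM in negative pool 1 alone. Tnnt3, Tnnc2 and Myh4, genes of fast muscle fibres, had no count in any pool, and Tnni2 and Myh1 were at most at 0.0253 and 0.0195 CPM.

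Itm2b, a ubiquitous relative of Itm2a, was at 371 to 997 CPM in all 10 pools with a log2 fold change of 0.65 ± 0.54 in the capsaicin selection (adjusted p = 0.907 in edgeR). Itm2c was at 115 and 0 CPM in nodose against 29.4 and 23.4 CPM in jugular pools there. Itm2a is also known from endothelial and immune cells. Of 5 endothelial markers Pecam1, Cdh5 and Cldn5 had at most 3 counts in every pool, while Kdr and Tek were at 30.5 and 2.52 CPM in Trpv1-positive nodose pool 2 and Kdr at 3.95 CPM in negative pool 2. Of 6 immune markers only Cd68 was counted. Cd68 was at 81.0 and 0.0649 CPM in the capsaicin-selected nodose pools and at 20.5 and 0 CPM in the jugular pools of that selection. It was at 5.86 and 0 CPM in Trpv1-positive nodose, 0 CPM in Trpv1-positive jugular and at most 0.0269 CPM in negative pools. The part of these markers in the levels of Itm2a was not tested.

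Of the doublecortin relatives, Dclk1 was at 47.7 and 15.4 CPM in Trpv1-positive nodose and 124 and 94.2 CPM in jugular pools. It was at 0.0892 and 0 CPM against 51.4 and 59.5 CPM in the capsaicin selection, a log2 fold change of -10.04 ± 3.44 (adjusted p = 0.352 in edgeR and 0.00282 in DESeq2). Dclk2 ranged from 0 to 149 CPM and Dclk3 from 0 to 56.5 CPM. Dcx, the doublecortin gene itself, was under 1 CPM in all pools except capsaicin-selected jugular pool 1, at 18.8 CPM.

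Rprm, the nearest relative of Rprml, was at 65.0 and 107 CPM in Trpv1-positive nodose pools and at 3.61 and 0.889 CPM in negative pools. Among Trpv1-positive jugular neurons it was at 8.67 and 31.9 CPM, where Rprml had 7 and 2 counts. Of the 11 Efcab relatives only Efcab14 reached 10 CPM in both pools of a group.

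For Ccdc80, which fibroblasts also make, 6 connective tissue markers summed to 0.293 and 9.82 CPM in Trpv1-positive nodose, 6.95 to 43.4 CPM in jugular and 23.5 to 31.1 CPM in negative pools. In the capsaicin selection they summed to 41.1 and 0 CPM in nodose pools 1 and 2 and to 275 and 56.4 CPM in jugular pools 1 and 2. Ccdc80 itself was at 125 and 120 CPM in Trpv1-positive nodose pools 1 and 2 and at 6.51 and 44.6 CPM in the negative pools. It was at 363 and 616 CPM in capsaicin-selected nodose pools 1 and 2, and the jugular pools of both selections had 4 to 7 counts. The part of these markers in the levels of Ccdc80 was not tested. Satellite glia and Schwann cell markers, 6 in number, summed to 687 to 2169 CPM over the pools of every group.

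**Figure D5:**
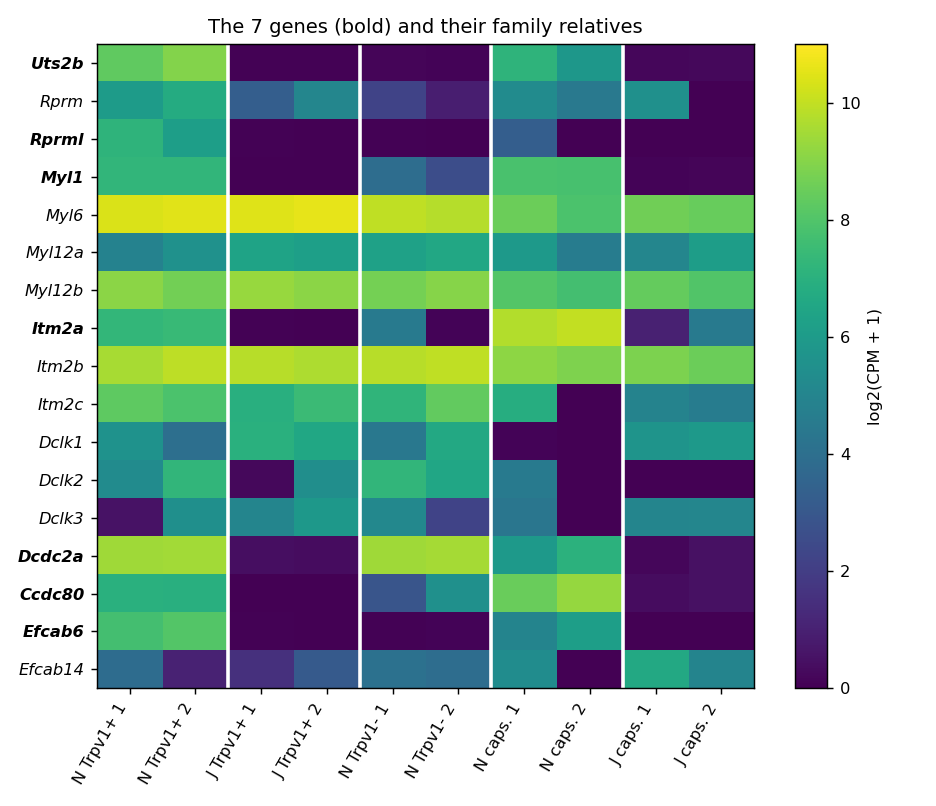
Heatmap of log2(CPM + 1) of the 7 genes (bold) and of the 10 family relatives that reached 10 CPM in both pools of a group, in the 10 pools (N, nodose; J, jugular; caps., capsaicin selection). Each bold row is dark in the jugular pools, apart from Itm2a in the capsaicin selection, whereas Myl6, Myl12b and Itm2b are bright in every pool.

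The likeness of patterns was measured by Pearson's r of log2(CPM + 1) over the 10 pools, among 8233 genes with a mean of at least 10 CPM. The pools share their depth and selection in blocks, so r is a description. It also takes in the Trpv1-positive nodose and jugular pools that chose the genes. Kcnk3, Vip, P2rx2 and Hoxb5 met the same limits, so a high r among genes that met them is partly built in. The levels given for neighbours come from pools that entered r, so they describe the likeness and test nothing. Uts2b and Efcab6 were nearly alike (r = 0.986), and both had Kcnk3, a potassium channel, and Vip, a neuropeptide, as their nearest other genes (r = 0.981 and 0.962 for Uts2b, and 0.980 and 0.961 for Efcab6). Kcnk3 was at 134 and 133 CPM in Trpv1-positive nodose pools, at 17.9 and 11.9 CPM in capsaicin-selected nodose pools and at most 0.631 CPM elsewhere. The third were Col6a5 for Uts2b (r = 0.943) and Pip5k1b for Efcab6 (r = 0.953).

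Myl1 and Ccdc80 (r = 0.956 with each other) shared Trpc4, a cation channel, as the nearest gene (r = 0.962 and 0.973), and also Fam122b (r = 0.929 and 0.942). The remaining neighbours were Obfc1 for Myl1 (r = 0.944) and P2rx2, the ATP-gated channel of nodose C-fibers, for Ccdc80 (r = 0.934). Trpc4 was at 15.5 and 35.7 CPM in Trpv1-positive, 1.72 and 3.33 CPM in negative and 55.4 and 114 CPM in capsaicin-selected nodose pools, with at most 0.0566 CPM in jugular pools.

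Dcdc2a had r of 0.508 to 0.773 with the other 6. Its nearest genes were Rgs9 (r = 0.983), a regulator of G protein signalling, Atp7a (r = 0.977), a copper transporter, and the homeobox gene Hoxb5 (r = 0.966). Rgs9 was at 86.7 and 95.9 CPM in the Trpv1-negative nodose pools, which entered its r with Dcdc2a. Itm2a was nearest to Rnase4 (r = 0.926), the cholecystokinin receptor gene Cckar (r = 0.912) and Tcaf2 (r = 0.910). Rprml was nearest to Npas1, Lrrc75a and Mtrf1 (r = 0.955, 0.954 and 0.949). Npas1 was at 59.0 and 41.8 CPM in Trpv1-positive nodose pools and at 0.446 and 0 CPM in the capsaicin-selected nodose pools. These pools entered its r with Rprml.

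Among the other 14 genes that met the same limits, 10 did not overlap toward nodose in the capsaicin selection (background 11.6% of 8181 genes), beside 6 of the 7. P2rx2 is among the 10, and these nodose pools were picked by their response to an agonist of P2X receptors. The mirror limits, over 70 CPM in both Trpv1-positive jugular pools and under 1 CPM in both nodose pools, also took 21 genes, of which 16 did not overlap toward jugular in the capsaicin selection (background 29.4% of 8181 genes).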

How the data were processed

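RNA of 10 pools of single vagal neurons was amplified by oligo-dT primed SMARTer chemistry and sequenced as paired ends. The authors aligned the reads to mm10 with TopHat2 2.0.9 and Bowtie2 2.1.0.0 and counted them with HTSeq, and the deposited values are raw counts per gene symbol, 24421 rows per pool. The annotation and strand setting of the counting are not given in the sources used here, and 27 symbols had been altered by a spreadsheet. CPM is counts over the plain total of the pool. The genes, family lists and markers were chosen with earlier results of these data known. Named are the 7 genes, their family relatives and, for each of the 7, the 3 genes most like it over the 10 pools.

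Each comparison of 2 against 2 pools was fitted over all genes with edgeR 4.0.16 (R 4.3.3; TMM, filterByExpr, quasi-likelihood test, Benjamini-Hochberg adjustment), and the SE is the log2 fold change over the square root of F. DESeq2 1.42.0, size-factor scaling, no filter, a replicate block, a fit of all 10 pools and leaving out each pool were alternatives. The script was also run on simulated counts with known changes, whose outcome is not given here and from which nothing is read. Counting intervals are exact binomial (SciPy 1.17.1) and cover counting error only. Counts of paired pools differed far beyond sampling noise (chi-square over degrees of freedom of 513 to 3040), so no pool was a copy.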

Additional observations from a re-analysis of the deposited data

How the results depend on the processing

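In the capsaicin selection, where edgeR called 0 of the 7 genes and 0 genes in either direction, size-factor scaling left every count at 0. The genes of the 7 called toward nodose numbered 6 with DESeq2, 3 without the filter on low counts, 2 with the replicate block, 5 with all 10 pools in 1 fit and 0 to 2 with 1 pool left out. Of all genes, 99 were called toward nodose and 697 toward jugular with DESeq2, 46 and 76 without the filter, 11 and 9 with the replicate block, 44 and 67 with all 10 pools, and 0 to 17 and 0 to 14 with 1 pool left out. Ccdc80 was called in 7 of 9 alternatives, Itm2a in 5, Myl1 in 4 and Uts2b, Efcab6 and Dcdc2a in 2 each, while Rprml was called in none of 6. Rprml, at 8.75 and 0 CPM in the nodose pools, could not meet the 10 CPM of the call rule in any setting. All 54 alternative log2 fold changes of the 6 other genes were toward nodose. Their nodose and jugular pools did not overlap, so the settings could hardly change the direction and its constancy is no test. DESeq2 called 1 family relative. Without nodose pool 2 no gene was called, and the cause was not tested.

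In the Trpv1 selection, which chose the genes, the 6 called became 2 with the replicate block (9 of all genes higher and 4 lower) and 0 with any 1 pool left out (0 and 0). Against Trpv1-negative neurons the 2 called became 4 with DESeq2 (89 of all genes higher and 349 lower), 1 with all 10 pools (3 and 4), 0 with the replicate block (1 and 0) and 0 with any 1 pool left out (0 and 0). With 1 pool in an arm, that pool is assumed to vary like the other group. Pools with the same replicate number did not deviate together (r = -0.0175, 0.0044 and -0.0099 in the 3 comparisons). The large spread between pools of few cells could hide a shared animal, so this r does not exclude that the numbers pair them. The limits were met by 15 genes on size-factor CPM, where Rprml fell out, and by 22 without Rn45s. Of the 21 nearest neighbours, those kept with a pseudocount of 0.1 numbered 19.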
